A study of Mus musculus with 6 samples.

Results

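The genes described here move, store or sense zinc in mouse oocytes. They are 30 genes of the 55487 in the deposited table: 10 zinc exporters of the SLC30 (ZnT) family, 14 importers of the SLC39 (ZIP) family, 4 metallothioneins, the zinc-sensing transcription factor gene Mtf1 and the efflux transporter gene Tmem163. They were listed by family and symbol, with earlier results of these data known, and each symbol matched 1 identifier. At least 1 read was assigned to 26 of the 30, and 17 were abundant enough to be tested for a difference between the groups.

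RNA was sequenced from 6 libraries of mouse oocytes, 3 labelled control and 3 labelled metformin, a biguanide antidiabetic drug. Per the labels, the females of both groups were primed with 10 IU PMSG, a gonadotropin, and germinal-vesicle oocytes were collected after 46 to 48 h, freed of their cumulus cells and matured for 16 h in M16 medium to metaphase II, with or without the drug. The series title names aged mice. Age in weeks, strain, the number of oocytes in a library and which of the 10, 20 and 50 μM concentrations was sequenced are not stated in the labels, nor is whether libraries came from separate animals, so the p-values measure the spread between these libraries, which may be partly technical. Total counts were 8622281 to 10588292 per library, so that 3 reads corresponded to between 0.285 and 0.339 CPM (read counts scaled to a common, TMM-adjusted library size). This floor covers counting error only. The intervals on fold changes given below also include the spread between these libraries. A summed 20833 to 26478 CPM came from 8 oocyte markers. The 12 cumulus and granulosa markers summed to between 1172 and 1661 CPM. Of these, Serpine2 had 11707 to 15728 reads per library, Cyp19a1 318 to 489 and Kitl 78 to 109, another 6 had at most 16 in any library, and Amh, Foxl2 and Ptx3 had 0 in every library; their part in the results below was not tested. The blood and immune markers summed to 36.2 CPM in control replicate 1 and to between 3.17 and 4.13 CPM in the other 5 libraries.

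Zinc is a signal of the meiotic cell cycle in mouse oocytes as well as a cofactor. Oocytes take up zinc while they mature, hold metaphase II arrest with the help of the zinc-binding protein EMI2, and release zinc in sparks from cortical vesicles at fertilization. ZIP proteins carry zinc into the cytosol from outside or from organelles, ZnT proteins carry it out of the cytosol, metallothioneins bind it through clustered cysteines, and MTF1 switches on metallothionein and exporter genes when cytosolic zinc is high.

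Transcripts of these genes were spread over a wide range of levels, and 2 importers stood at the top. On the authors' FPKM scale, which divides by gene length and so allows genes to be compared with each other, 3 members averaged at least 10 FPKM over the 6 libraries (Slc39a10, Slc39a6 and Mt4). Another 4 averaged between 1 and 10 FPKM (Slc30a5, Slc30a3, Mtf1 and Slc30a1). The remaining 23 were below 1 FPKM, 4 of them (Slc30a8, Slc30a10, Slc39a2 and Mt3) without a read in any library. The libraries are bulk samples, so fewer contributing cells and less RNA per cell cannot be told apart. Slc39a10 alone made up between 50.4% and 59.0% of the summed FPKM of all 30 genes in a library. The steps from Slc39a10 down to Slc39a6, from Mt4 down to Slc30a5, from Slc30a3 down to Mtf1 and from Slc30a1 down to Slc30a9 exceeded the whole range over the 6 libraries. Every other pair of neighbours with reads overlapped in range, including Slc39a6 with Mt4, Slc30a5 with Slc30a3 and Mtf1 with Slc30a1.

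**Figure D1:**
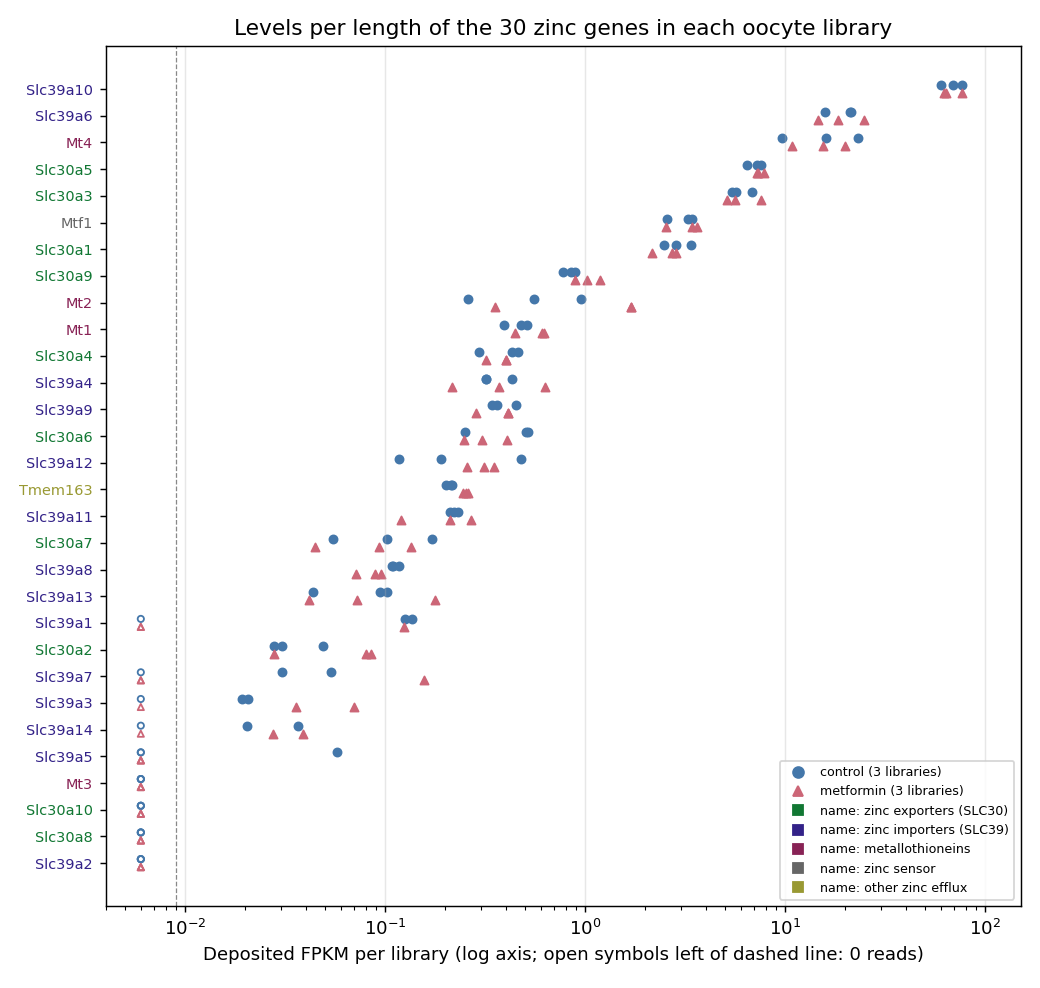
Deposited FPKM of each of the 30 zinc genes (rows, ordered by mean) in the 3 control (circles) and 3 metformin (triangles) libraries on a log axis, with open symbols for libraries without a read. Slc39a10 lies between 60.4 and 76.2 FPKM in all 6 libraries, 23 genes average below 1 FPKM, and control and metformin symbols are interleaved for most genes.

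Levels per length depend on the gene lengths used. Gene lengths recovered from counts and FPKM exceeded the union of annotated exons (GENCODE M21) by a median factor of 1.32 over 6587 genes with at least 600 reads in all, and the factor differed between genes. Dividing CPM by the union exon length instead raised the members with reads by factors of 1.01 to 2.73, by more than 1.5 for 11 of them. The 10 highest members kept their order, and 9 rather than 7 members then averaged at least 1, with Slc30a9 at 1.46 and Mt2 at 1.32 CPM per kilobase joining.

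The comparison of metformin with control asked whether the levels of these transcripts differed between the groups. The libraries were primed on poly(A) tails, so new synthesis, decay and a change of tail length cannot be told apart. Of the 17 members tested, 0 were called at 0.05 by edgeR's quasi-likelihood test with Benjamini-Hochberg adjustment over all genes. That threshold called 0.0391% of all 12793 tested genes, 0.0235% higher and 0.0156% lower in the metformin libraries. At an unadjusted p under 0.05 there were also 0 of 17, against 1.5% of all tested genes, and DESeq2 and limma-voom called 0 members as well. In the metformin libraries 8 of the 17 were fitted higher and 9 lower, where 52.5% of all genes were fitted higher. The median log2 fold change of the 17 was -0.01, beside 0.01 over all tested genes, and single values lay between -0.42 and 0.31. None exceeded 0.5 in size, which 7.76% of all tested genes did. The sign turned for 10 of the 17 when a single library was left out, and kept for the other 7. The groups did not overlap for 2 of the 17, Slc39a8 and Tmem163, beside 5.63% of all tested genes (2.84% with metformin higher, as for Tmem163, and 2.79% with metformin lower, as for Slc39a8). The adjusted p was 1.00 for each of the 17 members, so none is repeated below.

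**Figure D2:**
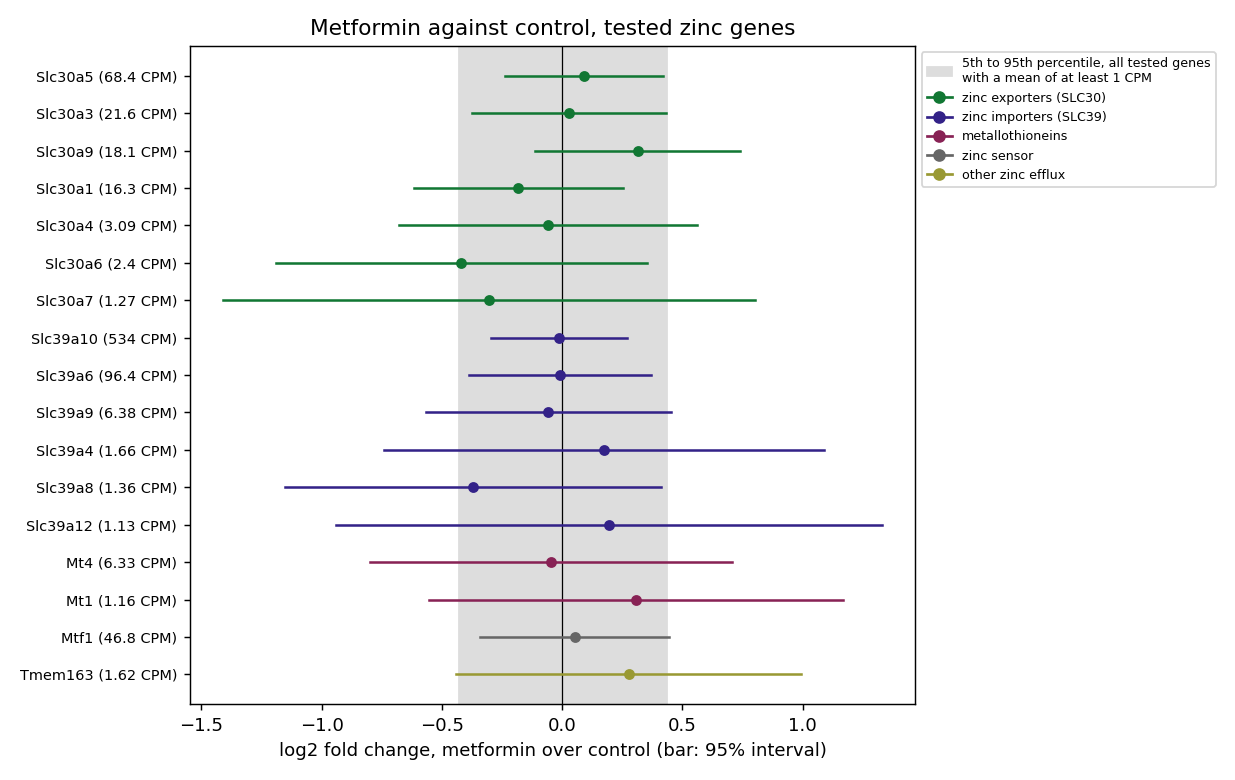
Log2 fold change of metformin over control (points) with its 95% interval (bars) for the 17 tested zinc genes, with the mean CPM of each gene beside its name. The grey band marks the 5th to 95th percentile of all tested genes with a mean of at least 1 CPM, from -0.43 to 0.44. Every point lies inside the band and every interval crosses 0, with the narrowest interval for Slc39a10.

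The importers were dominated by a single pair. Slc39a10 (ENSMUSG00000025986, GRCm38 chromosome 1, 46807544 to 46892852, minus strand) encodes ZIP10, and Slc39a6 (ENSMUSG00000024270, chromosome 18, 24579881 to 24603817, minus strand) encodes ZIP6, closely related plasma membrane importers that supply zinc to the maturing mouse oocyte. Slc39a10 stood at 68.9, 76.1 and 60.4 FPKM in control replicates 1 to 3 and at 76.2, 63.5 and 62.1 FPKM in metformin replicates 1 to 3. No library set it apart, the lowest being control replicate 3 and the highest metformin replicate 1, and among the 26025 genes with a read in any library it ranked at place 645 by mean FPKM. Slc39a6 stood at 21.0, 21.4 and 15.9 FPKM in control and at 24.8, 18.3 and 14.7 FPKM in metformin libraries. The metformin libraries held both its highest and its lowest value. Slc39a10 exceeded Slc39a6 in each library, by a factor of 3.08 to 4.24 in FPKM and 3.23 to 4.45 in CPM per kilobase of exon. Slc39a10 and Slc39a6 together left little of the family's signal to the other 12 importers: in each library Slc39a10 held 74.3% to 79.6% of the summed importer FPKM and Slc39a6 18.8% to 24.1%.

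On the CPM scale, which compares libraries for 1 gene, Slc39a10 stood at 537 ± 44.2 CPM in the control and 532 ± 33.0 in the metformin group (SD, n = 3). The fitted log2 difference was -0.01 (SE 0.129, 95% interval -0.30 to 0.27), so a fold between 0.814 and 1.21 was compatible with these libraries. Slc39a6 stood at 96.7 ± 11.9 and 96.1 ± 19.1 CPM, and its log2 difference was estimated as -0.01 (SE 0.172, 95% interval -0.39 to 0.37). These were the most precisely measured importers, and any difference inside these intervals remained compatible with the data. The intervals are not limits of detection. Slc39a10 had 4808 to 5946 reads per library and Slc39a6 777 to 1229.

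Of the 14 importers 6 were tested, 2 fitted higher and 4 lower, with a median of -0.01 on the log2 scale. Summed over the family, importers reached 647 ± 53.9 CPM in the control and 641 ± 48.4 in the metformin group. The other importers were scarce. Slc39a9, which encodes a ZIP of the secretory pathway and cell surface, was the next by reads with 51 to 71 per library, at 6.51 ± 0.898 CPM in the control and 6.25 ± 0.918 in the metformin group (SD, n = 3). Single libraries of Slc39a9 ran from 5.22 to 7.46 CPM, with metformin replicate 3 the lowest and control replicate 2 the highest. Of its exon bases 4.52% lie opposite Erh, which had 2086 to 3328 reads, so some of its few reads may belong there. Slc39a4, the intestinal zinc uptake gene mutated in acrodermatitis enteropathica, had 10 to 28 reads and stood at 1.37, 1.36 and 1.96 CPM in the control and 1.52, 2.75 and 1.02 in the metformin group. The highest and lowest Slc39a4 values were both in metformin libraries. Slc39a12, best known from brain, had 4 to 19 reads and stood at 0.736, 0.452 and 1.96 CPM in the control and 0.951, 1.38 and 1.33 in the metformin group. Both of its extremes were control libraries, so the groups overlapped. Slc39a8, whose product also carries manganese, stood at 1.58, 1.47 and 1.55 CPM in the control and 1.24, 0.982 and 1.33 in the metformin group. All 3 metformin values of Slc39a8 lay below all control values, on 10 to 15 reads per library, and its log2 fold change of -0.37 (SE 0.357) had an unadjusted p of 0.320.

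The remaining 8 importers did not reach the test. Slc39a11 had 5 to 12 reads and Slc39a13, whose product serves collagen-making cells, 3 to 12. Of the Slc39a13 exon bases 4.42% lie opposite Psmc3, which had 77 to 116 reads, so some of the few Slc39a13 reads may belong there. Slc39a14, the close relative of Slc39a8, had 0 to 6 reads and Slc39a3 had 0 to 8. Slc39a1, one of the most widely expressed importers of other tissues, had 0 or 3 reads in each library. It shares a stretch of 973 bases at 97.7% identity with the pseudogene Slc39a1-ps, which had 0 to 3 reads, so their reads may be divided. Slc39a7, which releases zinc from the endoplasmic reticulum, had 0 to 10 reads. Of its exons, 80.7% also belong to Gm20427, a transcript on the same strand with 0 to 5 reads, and how reads that match both were counted is not given in the sources used here, so the level of Slc39a7 is uncertain. Slc39a5 had 2 reads in control replicate 3 and 0 elsewhere, and Slc39a2, an importer of epithelia, had 0 reads in every library.

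Exporter transcripts were more evenly divided. Slc30a5 (ENSMUSG00000021629, chromosome 13, 100802648 to 100833427, minus strand), which encodes the ZnT5 pump of the early secretory pathway, stood at 7.20, 6.42 and 7.52 FPKM in control and 7.27, 7.84 and 7.23 FPKM in metformin libraries. Slc30a3 (ENSMUSG00000029151, chromosome 5, 31086106 to 31108237, minus strand), known for loading zinc into synaptic vesicles, stood at 6.80, 5.44 and 5.69 FPKM in control and 7.55, 5.60 and 5.09 FPKM in metformin libraries. The ranges of this pair met, and the exporter with more signal in metformin replicate 1 was Slc30a3. Slc30a1 (ENSMUSG00000037434, chromosome 1, 191906767 to 191913247, plus strand), the exporter of the plasma membrane and a classical MTF1 target, followed with 2.15 to 3.39 FPKM. Slc30a5 held 37.2% to 44.5%, Slc30a3 30.8% to 38.6% and Slc30a1 13.2% to 18.3% of the summed exporter FPKM. The summed importer FPKM exceeded the summed exporter FPKM in every library, by a factor of 4.23 to 6.20.

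**Figure D3:**
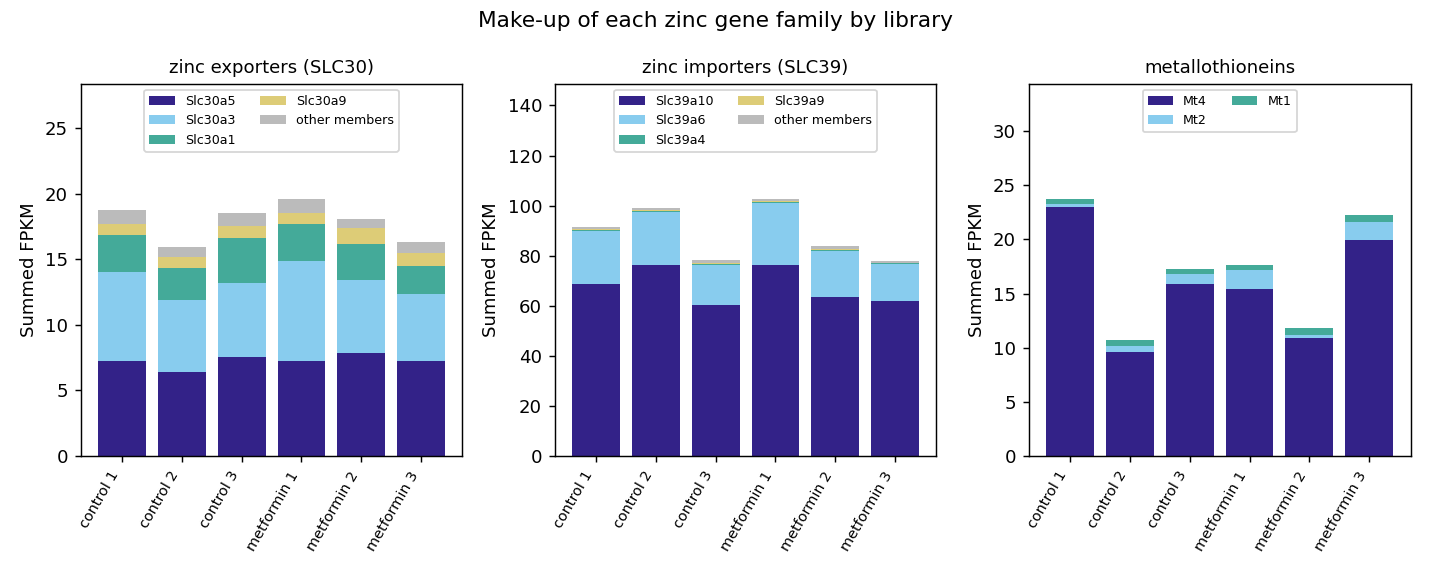
Summed FPKM of the SLC30 exporters, the SLC39 importers and the metallothioneins in each of the 6 libraries, stacked by gene (linear axes from 0, a different scale in each panel). Slc39a10 fills about as much of the importer bar in metformin as in control libraries, at 74.3% to 79.6%. The exporters are divided mainly between Slc30a5 and Slc30a3. Mt4 makes up 87.8% to 96.9% of the metallothionein bar, a share that depends on the gene lengths used.

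Of the 10 exporters 7 were tested, 3 fitted higher and 4 lower, with a median of -0.06 on the log2 scale, and the summed exporter signal was 129 ± 14.7 CPM in the control and 134 ± 4.46 in the metformin group. Slc30a5 stood at 66.2 ± 7.49 CPM in the control and 70.5 ± 5.30 in the metformin group (SD, n = 3), which gave a fitted log2 difference of 0.09 (SE 0.15, 95% interval -0.24 to 0.42). Slc30a3 stood at 21.3 ± 2.38 and 21.8 ± 3.23 CPM and Slc30a1 at 17.3 ± 3.37 and 15.2 ± 1.24 CPM. The Slc30a1 libraries overlapped, at 16.5, 14.4 and 21.0 CPM in the control and 15.8, 16.1 and 13.8 in the metformin group, and the fitted log2 difference was -0.18 (SE 0.199). The antisense gene 1700034H15Rik, with 0 to 6 reads, covers 8.92% of its exon bases. Slc30a9, which encodes a mitochondrial zinc exporter, had the smallest unadjusted p of all 17 members, 0.135. It stood at 16.0, 14.6 and 17.9 CPM in the control and 16.2, 22.8 and 21.3 in the metformin group. Its groups overlapped through metformin replicate 1, and its log2 fold change was 0.31 (SE 0.195, 95% interval -0.11 to 0.74).

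The partner genes of the secretory pathway differed in level. ZnT5 works there as a dimer with ZnT6, yet Slc30a6, which encodes ZnT6, had 14 to 33 reads against 520 to 749 for Slc30a5. In FPKM, Slc30a5 exceeded Slc30a6 by a factor of 14.0 to 29.2 in a library, and in CPM per kilobase of exon by 8.54 to 17.8. Slc30a6 stood at 3.26, 1.58 and 3.41 CPM in the control and 2.47, 1.96 and 1.74 in the metformin group. It had the lowest log2 fold change of the 17, -0.42 (SE 0.352), with overlapping groups. Slc30a7, the Golgi exporter that fills zinc enzymes beside ZnT5 and ZnT6, had 6 to 22 reads and stood at 1.26, 0.678 and 2.27 CPM in the control and 1.62, 1.18 and 0.614 in the metformin group. Slc30a4, an endosomal exporter, had 24 to 34 reads and stood at 3.36, 3.62 and 2.48 against 3.04, 2.55 and 3.48 CPM. The groups overlapped for both. Slc30a5 and Slc30a6 transcripts also match other genes over short stretches of at most 155 bases at 95% identity or more. Of the Slc30a7 exon bases 10.5% lie opposite the pseudogene Gm6649, which had 0 or 1 read. Slc30a2, the exporter of mammary secretory vesicles, had 2 to 6 reads and was not tested. Slc30a8, the exporter of insulin granules, and Slc30a10, a manganese exporter, had 0 reads in every library. Tmem163, a vesicular zinc efflux transporter outside both families, had 13, 13 and 15 reads in control and 18 in each metformin library. In CPM this was 1.37 to 1.55 against 1.71 to 1.84, without overlap between groups. The fitted log2 difference was 0.28 (SE 0.327, unadjusted p = 0.416). Of the Tmem163 exons 3.54% lie opposite Mgat5, which had 113 to 181 reads, so a level this low is uncertain.

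Metallothioneins are small proteins whose cysteines hold zinc, and the 4 mouse genes lie in a cluster on chromosome 8 in the order Mt4, Mt3, Mt2, Mt1, all on the plus strand (GRCm38 94137197 to 94180327). The coding sequences of the 3 expressed members, from the GENCODE M21 transcripts and without the stop codon, are shown because the paralogs are alike and their reads must be told apart. Capitals mark in-frame cysteine codons (TGC or TGT), of which each gene, Mt3 included, has 20.
Mt1: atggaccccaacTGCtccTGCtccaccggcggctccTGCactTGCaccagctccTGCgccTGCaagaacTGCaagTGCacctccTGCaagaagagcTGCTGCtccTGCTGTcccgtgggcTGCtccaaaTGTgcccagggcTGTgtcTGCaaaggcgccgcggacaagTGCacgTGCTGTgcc
Mt2: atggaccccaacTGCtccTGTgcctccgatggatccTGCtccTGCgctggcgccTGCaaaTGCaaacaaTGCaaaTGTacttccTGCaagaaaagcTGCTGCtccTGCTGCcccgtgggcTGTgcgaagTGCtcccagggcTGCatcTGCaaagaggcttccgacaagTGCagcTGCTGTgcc
Mt4: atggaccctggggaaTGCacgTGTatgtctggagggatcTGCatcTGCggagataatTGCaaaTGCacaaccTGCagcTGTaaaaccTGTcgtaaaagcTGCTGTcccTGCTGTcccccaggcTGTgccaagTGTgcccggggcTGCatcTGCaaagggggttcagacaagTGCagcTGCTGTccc
Over the coding sequence, Mt1 and Mt2 were 79.2% identical, with a longest shared run of 20 bases. Mt1 and Mt4 were 66.3% identical, with a longest shared run of 11 bases, and Mt2 and Mt4 72.7%, with a run of 18. No stretch of at least 100 bases at 95% identity or more linked one member's transcripts to another's.

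In most tissues Mt1 and Mt2 are the widely expressed members, while Mt3 is best known from brain and Mt4 from stratified epithelia. Mt4 (ENSMUSG00000031757, 94137197 to 94139031) was the leading metallothionein in each library. It had 85, 33 and 64 reads in control and 61, 44 and 84 reads in metformin libraries, which on its short exons of 398 bases gave 23.0, 9.62 and 15.9 FPKM and 15.5, 10.9 and 19.9 FPKM. Replicate 2 was the lowest library of both groups and control replicate 1, the library with more blood marker reads, the highest; their part in the Mt4 values was not tested. The log2 fold change of Mt4 was -0.05 (SE 0.343, 95% interval -0.80 to 0.71). Its sign turned without control replicate 1 (0.26), without metformin replicate 2 (0.16) and without metformin replicate 1 (0.0013).

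Mt1 (ENSMUSG00000031765, 94179082 to 94180327) had 10, 10 and 9 reads in control and 10, 14 and 15 in metformin libraries, and Mt2 (ENSMUSG00000031762, 94172664 to 94173568) had 2, 4 and 8 and then 14, 3 and 15. Mt3 had 0 reads in every library. Mt4 exceeded Mt1 by a factor of 17.9 to 48.4 in FPKM and of 9.84 to 26.6 in CPM per kilobase of exon. Both factors depend on the length given to Mt1. Its annotated exons cover the whole gene span, 1246 bases, and its FPKM values imply 2267 bases, against 398 bases for Mt4 on both scales. In reads, Mt4 also led Mt1 in each library, but by smaller factors. The same lengths enter the share of Mt4 in the metallothionein FPKM. Mt1 stood at 1.04 ± 0.101 CPM in the control and 1.29 ± 0.302 in the metformin group (SD, n = 3), which gave a fitted log2 difference of 0.31 (SE 0.393, 95% interval -0.55 to 1.17). At 9 to 15 reads per library, any difference of Mt1 within that interval remained compatible with these data. Mt2 did not reach the test, and its metformin libraries spanned 0.295 to 1.54 CPM, overlapping the control range of 0.210 to 0.826. Of the exons of Mt2, 73.5% also lie under the antisense gene Gm45774, which had 0 or 1 read, and reads from opposite strands cannot be told apart in these libraries, so the level of Mt2 is uncertain.

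**Figure D4:**
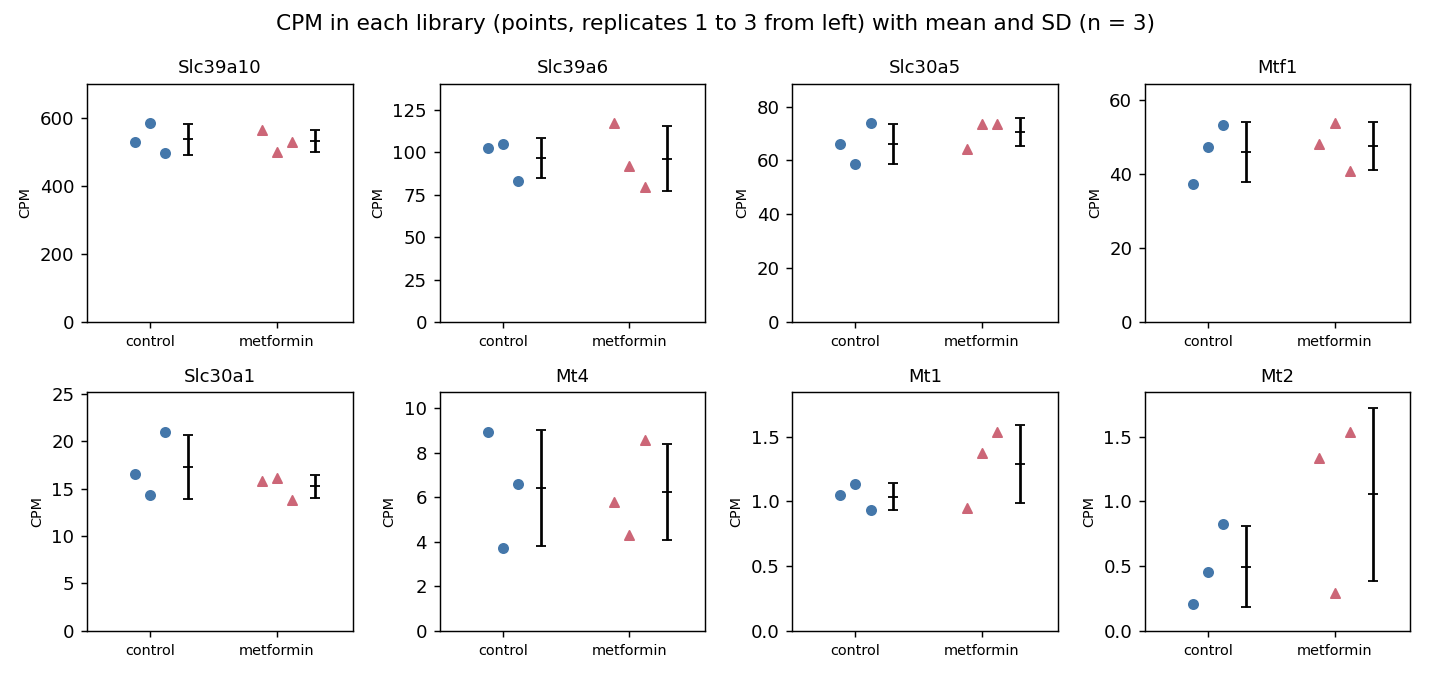
CPM of 8 zinc genes in each library (points, replicates 1 to 3 from left to right in each group) with the group mean and SD (n = 3, bars), on linear axes from 0. Control and metformin points overlap in each of the 8 panels, and Mt1 and Mt2 stay at or below 1.54 CPM in all 6 libraries.

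Transcripts of the zinc sensor gene were present. Mtf1 (ENSMUSG00000028890, chromosome 4, 124802104 to 124849800, plus strand) stood at 37.2, 47.4 and 53.2 CPM in the control and at 48.1, 53.7 and 40.9 in the metformin group, with overlapping groups and a log2 fold change of 0.05 (SE 0.180, 95% interval -0.34 to 0.44). On 354 to 547 reads per library it averaged 3.13 FPKM, or 5.25 CPM per kilobase of exon. The opposite-strand gene 1110065P20Rik, with 15 to 28 reads, covers 8.09% of its exon bases. Its FPKM range overlapped with that of its target Slc30a1 and lay above every value of its targets Mt1 and Mt2. MTF1 binds metal response elements, whose core reads TGCACNC or TGCGCNC. The sequences of 250 bases before the RefSeq start of 4 members (GRCm38.p6, 5′ to 3′ on the gene's strand) are shown because these genes are either established MTF1 targets or, for Mt4, the metallothionein that led here. Capitals mark matches to either core on either strand.
Mt1, chr8:94178839-94179088, + strand: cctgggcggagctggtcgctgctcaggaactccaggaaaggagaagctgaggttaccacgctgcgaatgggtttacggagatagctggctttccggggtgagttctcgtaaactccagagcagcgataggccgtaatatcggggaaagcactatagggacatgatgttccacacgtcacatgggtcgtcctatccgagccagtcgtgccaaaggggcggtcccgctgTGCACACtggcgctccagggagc
Mt2, chr8:94172368-94172617, + strand: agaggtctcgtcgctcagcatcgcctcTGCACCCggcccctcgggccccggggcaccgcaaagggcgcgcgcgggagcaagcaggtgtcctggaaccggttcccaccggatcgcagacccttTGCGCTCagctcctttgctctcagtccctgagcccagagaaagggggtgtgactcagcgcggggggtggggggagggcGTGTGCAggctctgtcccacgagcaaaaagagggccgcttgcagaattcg
Mt4, chr8:94136954-94137203, + strand: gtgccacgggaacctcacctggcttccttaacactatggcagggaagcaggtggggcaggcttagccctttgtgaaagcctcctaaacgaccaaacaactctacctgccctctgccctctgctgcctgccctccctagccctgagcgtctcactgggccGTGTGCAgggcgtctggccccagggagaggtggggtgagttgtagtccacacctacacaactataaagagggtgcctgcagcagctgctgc
Slc30a1, chr1:191906531-191906780, + strand: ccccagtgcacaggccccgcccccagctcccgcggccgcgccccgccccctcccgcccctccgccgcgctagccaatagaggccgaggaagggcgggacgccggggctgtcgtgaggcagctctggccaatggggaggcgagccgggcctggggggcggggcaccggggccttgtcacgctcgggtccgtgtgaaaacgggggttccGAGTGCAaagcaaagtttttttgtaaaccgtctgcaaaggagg
In the full windows, which add 50 bases after the start, Mt2 had 4 matches, Mt1 3, Slc30a1 2 and Mt4 1. Of these, 3 for Mt2 and 1 each for Mt1, Slc30a1 and Mt4 lay within the 250 bases shown. Most Mt1 matches thus reached past the annotated start. Sequence further into the genes was not searched, so the counts depend on the start used and do not rank the promoters. At least 1 match was present in 25.7% and at least 3 in 1.97% of all 32851 such windows. RefSeq windows were found for 26 of the 30 members, some with more than 1 start, and 16 of their 31 windows held a match. Neither RefSeq window of Slc39a10, which MTF1 is known to repress, nor that of Mtf1 held one. The 250 bases before the RefSeq starts of Slc39a10 lay at 46853619 to 46853868 and 46925777 to 46926026. In GENCODE M21 this minus-strand gene begins at 46892852 instead, and the sequence there was not searched. A match is a string of letters and does not show a bound site.

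Other genes that carry, sense or use zinc were read from lists chosen by function. Of 11 other zinc-handling genes tested, 0 passed (edgeR, adjusted p = 1.00 for each), with 7 fitted higher, 4 lower, the median being 0.02 on the log2 scale. The highest of the list in both CPM and FPKM was Fbxo43, which encodes EMI2, the zinc-binding inhibitor that keeps the anaphase-promoting complex off at metaphase II, at 199 ± 7.63 CPM in the control and 189.9 ± 14.0 in the metformin group (SD, n = 3). Trpm7, a channel gene of divalent metal entry, stood at 43.1 ± 10.6 and 43.2 ± 5.59 CPM. Gclc, a glutathione synthesis gene that MTF1 can activate, had the smallest unadjusted p of the list, 0.107, at 15.2 ± 2.27 and 11.9 ± 1.62 CPM. Cacna1h, a calcium channel gene of the egg, stood at 2.52 to 2.94 CPM in the control and 3.27 to 4.72 in the metformin group, without overlap (log2 fold change 0.47, SE 0.275, unadjusted p = 0.115). Groups lacked overlap for 1 of the 11 tested, beside 5.63% of all tested genes.

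Of 8 genes for enzymes that receive zinc in the secretory pathway, 4 were tested and 0 passed (edgeR, adjusted p = 1.00 for each), 2 fitted higher and 2 lower, the median log2 difference being 0.02. Astl encodes ovastacin, the cortical granule protease that cleaves the zona protein ZP2 after fertilization, and stood at 300.4 ± 30.8 CPM in the control and 299 ± 61.4 in the metformin group (SD, n = 3). Adam10, a membrane protease gene, stood at 113 ± 14.6 and 116 ± 21.1 CPM. Its relative Adam17 stood at 86.0 to 89.0 CPM in the control and 70.7 to 81.9 in the metformin group, without overlap (fitted log2 difference -0.19, SE 0.137, unadjusted p = 0.182). Groups lacked overlap for 1 of the 4 tested, beside 5.63% of all tested genes.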

How the data were processed

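RNA libraries were made with the SMART-Seq HT kit, per the labels' protocols. That kit primes on poly(A) tails and marks neither strand nor molecule. CASAVA 1.8, TopHat2 2.0.6 and the build mm10 are named in the submitters' processing notes. For the counting program and annotation, nothing is stated in the labels. The authors deposited raw read counts and FPKM values per gene, per the file headers. The counts were tested as deposited; FPKM values served only to compare genes. Each column was matched to a sample by the initial and number in its title. Symbols (55141 of 55487 identifiers), coordinates and exon lengths came from GENCODE M21.

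The main test was edgeR 4.0.16 (R 4.3.3) quasi-likelihood, robust, with TMM scaling, filterByExpr (minimum count 10), no covariate, and p-values adjusted by Benjamini-Hochberg over all 12793 tested genes at 0.05. CPM use TMM-scaled sizes. Alternatives were DESeq2 1.42.0, limma-voom (limma 3.58.1), other scalings, no filter, a non-robust fit, a replicate block and leaving out each library. The test was also run on simulated counts with planted changes. Its outcome there is not reported here, and no result above relies on it. Transcripts were compared with BLAST 2.17.0. Members with a mean of at least 1 CPM are described singly; of each further list, the 2 genes with the smallest p and the 2 with the highest mean CPM, which is not a ranking per length, are named. The members and lists were chosen with earlier results of these data known.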

Additional observations from a re-analysis of the deposited data

How the results depend on the processing

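With other scalings, tools, filters and fits, and without each single library, 0 of the zinc genes were called, including the 26 tested with no filter or by DESeq2, and 0 members had an adjusted p below 0.997 in any of them. At an unadjusted p under 0.05 only Slc30a9 without metformin replicate 1 (log2 difference 0.45) and Mt2 without metformin replicate 2 (1.498, when it reached the test) appeared in edgeR's fits, with unadjusted values of 0.0379 and 0.0334. Over all genes, 5 were called in the main analysis, 8 by DESeq2 and 5 to 12 when one library was left out. The labels number the replicates 1 to 3 in both groups. Deviations from the group mean correlated across genes at 0.14, 0.04 and 0.20 for same-numbered libraries. Pairs with different numbers ran from -0.17 to 0.03, below all of these, and whether equal numbers share a batch was not tested. The labels state no pairing, so the number was not used as a pair in the main test. With the replicate block 7 genes were called and 0 members. Where the sign of a fold change turned when one library was left out, the log2 range was -0.10 to 0.11 for Slc30a3, -0.21 to 0.0488 for Slc30a4, -0.65 to 0.23 for Slc30a7, -0.29 to 0.44 for Slc39a4, -0.18 to 0.11 for Slc39a6, -0.15 to 0.0556 for Slc39a9, -0.0663 to 0.0496 for Slc39a10, -0.15 to 1.01 for Slc39a12, -0.35 to 0.26 for Mt4 and -0.0825 to 0.17 for Mtf1. It was -0.17 to 0.18 for Trpm7, -0.12 to 0.14 for Adam10, -0.19 to 0.0924 for Astl and -0.0852 to 0.20 for Atox1. Trpm7 also turned from 0.00345 to -0.00475 with upper-quartile scaling, -0.00776 with library size only and -0.0034 with no filter. The cause was not tested. At this depth, members below about 1 CPM had too few reads to pass the filter of the main test.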

Other observations

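Other metal-handling genes were compared in the same way. Of 11 copper-handling genes 9 were tested and 0 passed (edgeR, adjusted p = 1.00 for each), 4 fitted higher and 5 lower, the median log2 difference being -0.03. Atox1, the copper chaperone of the secretory pathway, averaged 62.9 FPKM and stood at 49.2 ± 8.57 CPM in the control and 51.0 ± 9.28 in the metformin group (SD, n = 3). Slc31a2, a copper transporter gene, stood at 61.0 ± 2.07 and 55.8 ± 5.96 CPM. Commd1, a copper homeostasis gene, stood at 26.2 to 32.6 CPM in the control and 34.0 to 39.5 in the metformin group, without overlap (log2 fold change 0.25, SE 0.165, unadjusted p = 0.162). Groups lacked overlap for 1 of the 9 tested, beside 5.63% of all tested genes. Cox17, which delivers copper to cytochrome oxidase, stood at 4.27 ± 1.37 and 3.19 ± 0.438 CPM.

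Of 15 iron- and manganese-handling genes 13 were tested and 0 passed (edgeR, adjusted p = 1.00 for each), 7 fitted higher and 6 lower, the median log2 difference being 0.02. Ireb2, the iron sensor that binds mRNA, had the highest CPM of the list at 428 ± 38.99 CPM in the control and 391 ± 31.2 in the metformin group (SD, n = 3), and the Golgi manganese and calcium pump gene Atp2c1 stood at 369.8 ± 38.2 and 346 ± 39.8 CPM. Per length the order differed: Pcbp1, an iron chaperone gene named here after its values were seen, averaged 132 FPKM against 40.8 FPKM for Ireb2 and 21.5 FPKM for Atp2c1, and stood at 242 ± 39.7 and 245 ± 21.1 CPM. Aco1, the other iron sensor, stood at 7.34 to 7.80 CPM in the control and 5.71 to 6.96 in the metformin group, without overlap (unadjusted p = 0.211). Groups lacked overlap for 1 of the 13 tested, beside 5.63% of all tested genes. Ncoa4, which takes ferritin to autophagy, split the metformin libraries. It stood at 75.7, 65.5 and 68.2 CPM in control, at 67.7 CPM in metformin replicate 1 and at 29.3 and 27.5 CPM in metformin replicates 2 and 3. The fitted log2 difference over all 6 libraries was -0.75 (SE 0.345) and was not called by edgeR (adjusted p = 1.00). Without metformin replicate 1 it was -1.30 with an adjusted p of 0.00759 (edgeR), and without any other single library the adjusted p was 1.00.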
